A study of Mus musculus with 8 samples.

Results

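The metallothionein and zinc transporter genes examined here are Mt1, Mt2, Mtf1, Slc30a1, Slc30a4, Slc30a5, Slc39a1, Slc39a4, Slc39a8 and Slc39a14, 10 of the 12393 genes measured in mouse ventral prostate. They were found by gene symbol in the platform annotation, which gave 14 probe sets, 1 for each of 6 genes and 2 for each of 4 genes. The study compared 4 wild type samples, labelled as normal prostate, with 4 transgenic samples, labelled as mouse prostatic intraepithelial neoplasia, a precancerous growth of the gland's epithelium. All were ventral prostate of FVB mice at 20 weeks, and the series title and design name the transgene as a constitutively active form of p110 beta, which is one of the catalytic subunits of PI3-kinase. The promoter of the transgene is not given in the sources used here, nor whether the arrays represent separate animals, so the spread between samples may be partly technical. The genes were picked by name with the differences of this same comparison already known, Mt2 among the genes with the largest falls. Their values are therefore given as a description, without p-values.

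Metallothioneins are small cysteine-rich proteins that bind zinc and copper ions and buffer them in the cytoplasm. When free zinc rises, the zinc finger factor MTF-1 binds metal response elements in the promoters of Mt1, Mt2 and the zinc exporter gene Slc30a1 and induces them. Slc30 proteins (ZnT) move zinc out of the cytoplasm, across the cell surface or into vesicles and the Golgi, and Slc39 proteins (ZIP) move it into the cytoplasm. Human prostate epithelium is known for a high zinc content, which is lower in prostate cancer, and for secretion of zinc and citrate. The zinc content of the mouse ventral prostate samples is not given here.

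By the brightest probe set of each gene, 3 of these 10 genes stood well below wild type in the transgenic prostates. They were the metallothionein genes Mt2 and Mt1 and the importer gene Slc39a8. On the log2 scale their differences, transgenic minus wild type, were -2.01 ± 0.13, -0.79 ± 0.12 and -1.43 ± 0.13 (SE of the limma fit, 4 arrays a group). The Mt1 value came from a probe set marked as shared between transcripts, and the other, dim Mt1 probe set differed by -0.02. These 3 genes were called lower, at a limma adjusted p under 0.05, as were 4.98% of all genes. Mtf1 and the zinc exporter genes Slc30a1, Slc30a4 and Slc30a5 differed by no more than 0.31 in size, and so did the importer genes Slc39a1 and Slc39a4. The importer gene Slc39a14 differed by -0.13 and -0.42 on its 2 probe sets.

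Promoter sequences are shown for the 3 genes with the lower transgenic values and for Slc30a1, a classical target of MTF-1 with little difference, so that the metal response elements can be seen beside the values. They are RefSeq windows of build GRCm38.p6, from 250 bases before to 50 bases after an annotated start, and 8 of the 10 genes matched an entry. Capitals mark each match to the core of the metal response element, TGCACNC or TGCGCNC on either strand, and no matches overlapped in these windows.

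Mt2, chr8:94172368-94172667, plus strand: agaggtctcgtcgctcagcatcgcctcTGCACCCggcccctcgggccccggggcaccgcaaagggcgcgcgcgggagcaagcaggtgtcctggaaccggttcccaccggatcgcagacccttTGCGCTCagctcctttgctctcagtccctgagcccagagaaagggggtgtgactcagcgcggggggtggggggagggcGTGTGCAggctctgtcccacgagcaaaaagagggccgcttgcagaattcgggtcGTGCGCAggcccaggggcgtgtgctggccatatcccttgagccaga

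Mt1, chr8:94178839-94179138, plus strand: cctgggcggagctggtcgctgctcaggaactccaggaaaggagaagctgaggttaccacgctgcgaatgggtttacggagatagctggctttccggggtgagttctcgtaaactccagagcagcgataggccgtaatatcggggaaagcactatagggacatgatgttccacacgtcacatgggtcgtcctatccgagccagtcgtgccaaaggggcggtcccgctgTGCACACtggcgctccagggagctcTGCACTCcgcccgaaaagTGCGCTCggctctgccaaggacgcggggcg

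Slc39a8, chr3:135825407-135825706, plus strand: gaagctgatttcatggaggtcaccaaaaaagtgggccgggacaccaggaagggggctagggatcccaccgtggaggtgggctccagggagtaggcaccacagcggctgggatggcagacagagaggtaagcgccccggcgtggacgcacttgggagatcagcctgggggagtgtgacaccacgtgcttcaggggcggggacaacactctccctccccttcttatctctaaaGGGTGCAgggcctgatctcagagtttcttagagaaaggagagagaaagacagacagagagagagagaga

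Slc30a1, chr1:191906531-191906830, plus strand: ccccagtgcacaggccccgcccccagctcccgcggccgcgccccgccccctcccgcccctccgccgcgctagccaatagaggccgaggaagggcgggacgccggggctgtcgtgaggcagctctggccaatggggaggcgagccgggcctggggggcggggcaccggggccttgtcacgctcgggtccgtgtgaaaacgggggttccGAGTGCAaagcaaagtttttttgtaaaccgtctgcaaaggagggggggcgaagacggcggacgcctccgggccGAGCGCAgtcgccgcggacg

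The Mt2 window held 4 matches and the Mt1 window 3. Of all 32851 promoter windows of the same length, 25.7% held at least 1 match, 1.97% at least 3 and 0.517% at least 4. Slc30a1 held 2 matches and Slc30a4 held 3, and the Slc30a5 window held 1. Slc39a8 has 2 annotated windows, of which the one shown held 1 match and the other none, and the windows of Slc39a1 and Mtf1 held none. The core of the antioxidant response element, TGACNNNGC, was found in the windows of Mt2, Slc30a1, Slc30a5 and Slc39a1 and in the other Slc39a8 window, against 12.4% of all windows. In these windows the number of matches did not follow the size of the difference, since Slc30a4 held as many as Mt1. The counts depend on which annotated start a window uses. The Mt1 window begins at 94178839 and the gene at 94178883, so most of that window lies inside the gene. Both Slc39a8 windows, from 135825029 and 135825407, lie inside the gene, which begins at 135816882. Sequence before these 2 gene starts was thus largely or wholly left out. A match says only that these letters are present.

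Mt1 and Mt2 lie side by side on chromosome 8 in GRCm38.p6, Mt2 at 94172618 to 94173567 and Mt1 at 94178883 to 94180327, on the same strand. Values below are log2 values made by RMA, which corrects background, normalizes arrays and combines the probes of a probe set, so levels are compared between arrays for 1 probe set and not between probe sets. Mt2 measured 11.60, 10.95, 11.19 and 11.39 in wild type arrays 1 to 4 and 9.26, 9.37, 9.21 and 9.26 in transgenic arrays 1 to 4. The groups lay far apart, and the transgenic arrays were closer together (SD 0.07) than the wild type arrays (SD 0.27). The means of 11.28 and 9.27 correspond to a level 4.02-fold higher in wild type. Of the 12393 genes, 10 had a lower difference than Mt2.

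Mt1 has 2 probe sets, and they gave different pictures. The brighter one measured 11.20, 10.89, 11.26 and 11.27 in wild type and 10.16, 10.44, 10.38 and 10.47 in transgenic arrays. Its groups did not overlap, with means of 11.16 ± 0.18 and 10.36 ± 0.14 (SD, n = 4 each), so that the wild type level was 1.73-fold higher. The other Mt1 probe set lay between 3.89 and 4.33 on all 8 arrays, below the median of every array (5.40 to 5.51), and its difference was -0.02. Values that low can be set by background. The brighter probe set is marked in its name as shared between transcripts, so Mt1 has no difference to report once such probe sets are left out.

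The difference on the Mt2 probe set was larger in size than that on the brighter Mt1 probe set, at -2.01 against -0.79 on the log2 scale. Probe sets can respond unequally to a like change in RNA, and the Mt1 one is shared, so this compares the probe sets and not the genes. The metallothionein genes Mt3 and Mt4, known from brain and stratified epithelium, stayed under the median of every array, at means of 4.75 and 4.87 for Mt3 and of 3.50 and 3.46 for Mt4, wild type before transgenic. Of these 2 genes 0 passed the threshold of the limma fit, an adjusted p of 0.05 over all 22626 probe sets tested, and 0 had an unadjusted p under 0.05.

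**Figure D1:**
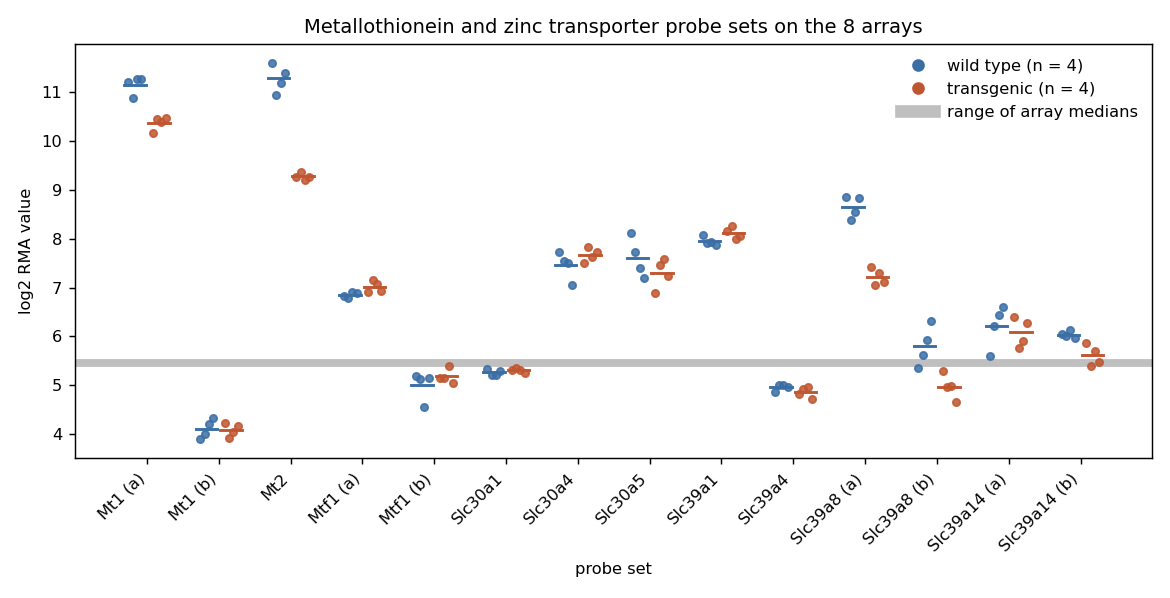
Log2 RMA values (vertical axis) of the 14 probe sets on the 8 arrays, with blue points for the 4 wild type and orange points for the 4 transgenic arrays, bars at the group means and a grey band over the array medians of 5.40 to 5.51; (a) and (b) are the brighter and dimmer probe set of a gene. Mt2, Mt1 (a), both Slc39a8 probe sets and Slc39a14 (b) are lower on every transgenic array. Mt1 (b), Mtf1 (b), Slc30a1 and Slc39a4 lie below the band.

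Mtf1 encodes the zinc-sensing factor itself. Its brighter probe set measured 6.82, 6.79, 6.91 and 6.89 in wild type and 6.91, 7.16, 7.08 and 6.92 in transgenic arrays, a difference of 0.17 ± 0.10 (SE). The groups met at 6.91 without overlapping, and the 95% interval of the difference ran from -0.05 to 0.38. The dimmer probe set, below the median of every array, differed by 0.18 ± 0.15 with overlapping groups, by 0.11 without transgenic array 3 and by 0.03 without wild type array 3, which stood at 4.55. A fall of Mtf1 larger than 0.05 on the log2 scale thus lies outside the interval of its brighter probe set.

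The exporter genes showed small differences. Slc30a1, the exporter of the cell surface, lay between 5.21 and 5.34 in wild type and between 5.25 and 5.35 in transgenic arrays, below the median of every array, with a 95% interval of -0.15 to 0.23. A change in a transcript at this level can be missed. Slc30a4, a vesicle exporter, measured 7.72, 7.55, 7.50 and 7.06 in wild type and 7.50, 7.84, 7.63 and 7.72 in transgenic arrays, so the groups overlapped, at a difference of 0.21 (95% interval -0.10 to 0.53). Without wild type array 4, the lowest, it was 0.08. Slc30a5, which loads zinc into the early secretory pathway, measured 8.11, 7.72, 7.39 and 7.19 in wild type and 6.89, 7.47, 7.58 and 7.23 in transgenic arrays. Wild type array 1 was the highest and transgenic array 1 the lowest, and the difference of -0.31 had an interval of -0.75 to 0.13. Leaving out wild type array 1 gave -0.14, and leaving out transgenic array 1 gave -0.18.

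Among the importers, Slc39a8 (ZIP8), which carries zinc, manganese, iron and cadmium, was the one that differed most. Its brighter probe set measured 8.86, 8.38, 8.55 and 8.84 in wild type and 7.42, 7.05, 7.29 and 7.12 in transgenic arrays. All transgenic arrays lay below all wild type arrays, with means of 8.66 ± 0.23 and 7.22 ± 0.17 (SD, n = 4 each), so that the wild type level was 2.70-fold higher. Of the 12393 genes, 34 had a lower difference. The dimmer Slc39a8 probe set measured 5.35, 5.62, 5.93 and 6.31 in wild type and 5.29, 4.96, 4.98 and 4.66 in transgenic arrays, again without overlap, at -0.83 ± 0.20 (SE). Its transgenic values lay below every array median, so its difference is approximate. It passed the threshold over all arrays and missed it without transgenic array 2 (-0.83), 3 (-0.84) or 4 (-0.73) or wild type array 3 (-0.79).

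Slc39a14 (ZIP14), the close relative of Slc39a8, is known as an importer induced by inflammation in liver. Its transgenic mean was lower on each of its 2 probe sets, but only 1 of them passed the threshold. The brighter of its probe sets measured 5.59, 6.22, 6.44 and 6.60 in wild type and 6.39, 5.77, 5.90 and 6.27 in transgenic arrays, with overlapping groups and a difference of -0.13 ± 0.21 (SE). Leaving out 1 array moved it between -0.33 (without wild type array 1) and 0.0 (without wild type array 4). The other measured 6.04, 6.0, 6.13 and 5.97 in wild type and 5.87, 5.40, 5.71 and 5.47 in transgenic arrays, without overlap, at -0.42 ± 0.12 (SE). This second value passed the threshold over all arrays, but the call ended when any array other than transgenic array 1 was left out, at -0.45 to -0.35, and under cyclic loess normalization, at -0.39. The 2 probe sets shared little of their variation within groups (r = 0.26 over the 8 arrays' deviations from their group means).

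The remaining importer genes were nearly level. Slc39a1 (ZIP1), the importer most discussed in human prostate epithelium, measured 8.07, 7.91, 7.93 and 7.87 in wild type and 8.16, 8.25, 8.0 and 8.05 in transgenic arrays. The groups overlapped slightly, and the difference of 0.17 had a 95% interval of -0.04 to 0.39. Slc39a4 (ZIP4), the importer of the gut, lay between 4.72 and 5.01 on all arrays, below the median of each.

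Of the 14 probe sets, 5 were called lower and 0 higher at the threshold, and 9 were not called. Over all 22626 probe sets 4.36% were called lower, 5.48% higher and 9.84% in either direction, and since the genes were chosen with this comparison known, nothing is read from that contrast. The groups did not overlap for 6 of the 14, against 15.0% of all probe sets. By the brightest probe set of each gene 3 of 10 genes were called lower (4.98% of all genes) and 0 higher (5.99%), 4 did not overlap between groups (16.3%), and the 10 genes had a median difference of -0.11 against -0.04 over all genes. Without transgenic array 2, 3 or 4 or wild type array 3, the number of probe sets called was 3, those of Mt2 and Mt1 and the brighter one of Slc39a8. The 9 that were not called differed by -0.31 to 0.21.

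**Figure D2:**
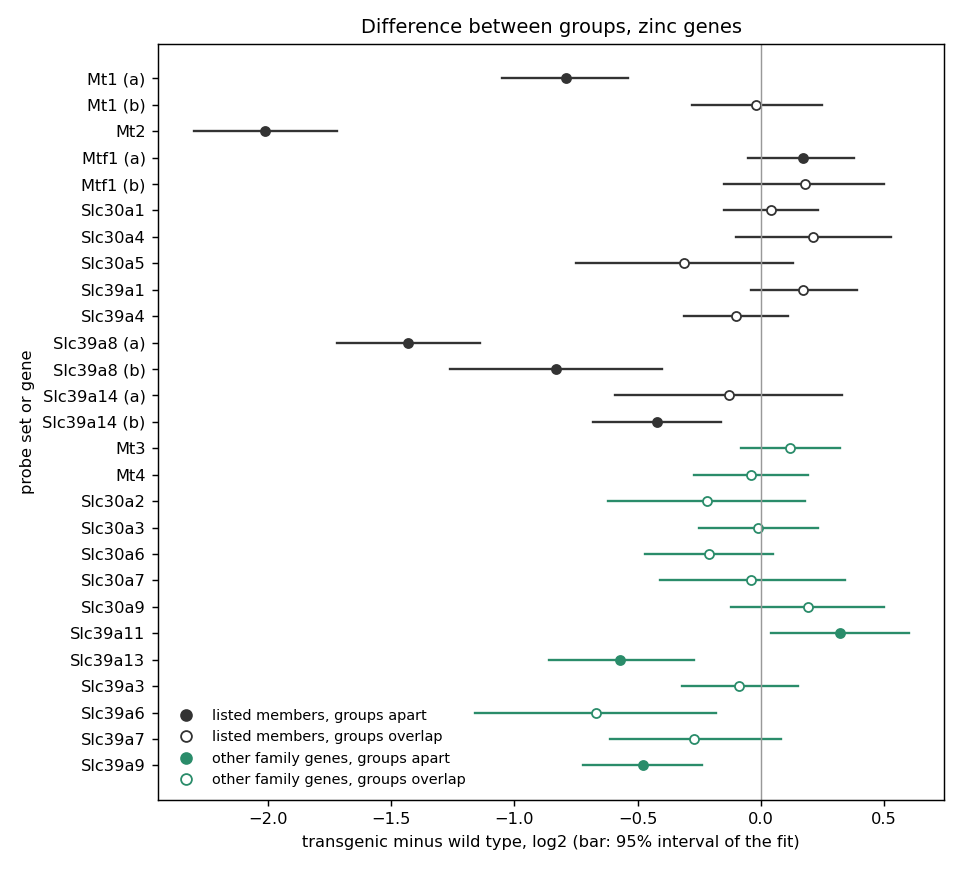
Difference between groups (horizontal axis, log2 of transgenic over wild type) with its 95% interval for the 14 probe sets (dark) and for the other measured zinc transporter and metallothionein genes (green), filled where the groups of 4 arrays do not overlap. Mt2 at -2.01 and Slc39a8 (a) at -1.43 lie farthest from 0, and the green points lie between -0.67 (Slc39a6) and 0.32 (Slc39a11).

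Of the 17 other zinc transporter genes, 11 had a probe set. Of these, 2 fell (against 4.98% of all genes), 0 rose (5.99%) and 9 did not pass. The 11 genes had a median difference of -0.21. Of the 11, 4 had an unadjusted p under 0.05, the 2 that fell among them. Slc39a9 (ZIP9) went from 8.46 ± 0.18 to 7.98 ± 0.07 (SD, n = 4 each; limma adjusted p = 0.0169). It missed the threshold without transgenic array 2 (adjusted p = 0.0589) or 4 (adjusted p = 0.0563). Slc39a13 (ZIP13), a zinc transporter of intracellular vesicles needed in connective tissue, went from 6.42 ± 0.22 to 5.86 ± 0.19 (limma adjusted p = 0.0201). Its call was lost without transgenic array 2 (adjusted p = 0.0679) or 3 (adjusted p = 0.0692) or wild type array 3 (adjusted p = 0.0695), so that 0 of the 11 genes passed without transgenic array 2. Slc39a6 (LIV-1), at 7.17 ± 0.54 and 6.50 ± 0.18, did not pass (limma adjusted p = 0.0899).

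Within groups, some pairs of zinc genes moved together from array to array and others did not. Over the deviations of the 8 arrays from their group means, Mt2 correlated with Mt1 at r = 0.57 and with Slc39a8 at r = 0.67. In wild type arrays these values were 0.70 and 0.96, with wild type array 2 lowest for all of Mt2, Mt1 and Slc39a8, and in transgenic arrays 0.26 and -0.65. Mt1 and Slc39a8 correlated at r = 0.14, with 0.72 in wild type and -0.90 in transgenic arrays, so the 3 genes did not move as 1 group. Wild type array 2 also had the highest stromal score (0.77 against -0.17 to 0.30 in the rest of its group), an average over 19 smooth muscle and fibroblast markers after centring each on its mean, and the part of this in the correlations was not tested. Of 12392 other genes, 3.61% were at least as like Mt2 as Slc39a8 was and 6.72% at least as like it as Mt1. Slc30a5 correlated with Slc30a7, Slc39a6 and Slc39a7, other transporters, most of them of the secretory pathway, at r = 0.89, 0.90 and 0.90. Over the 8 arrays Slc30a6, another of them, did not follow. Its r was 0.08 with Slc30a5, 0.07 with Slc30a7, 0.36 with Slc39a6 and -0.26 with Slc39a7. In wild type arrays alone these values were 0.72 to 0.92, and in transgenic arrays -0.86 to -0.39. Slc30a7, Slc39a6 and Slc39a7 were chosen after their values were seen. Likeness such as theirs to Slc30a5 was common, since 5.68% of genes were at least as like Slc30a5 as Slc39a7 was. All such values share the same 8 arrays and their quality.

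**Figure D3:**
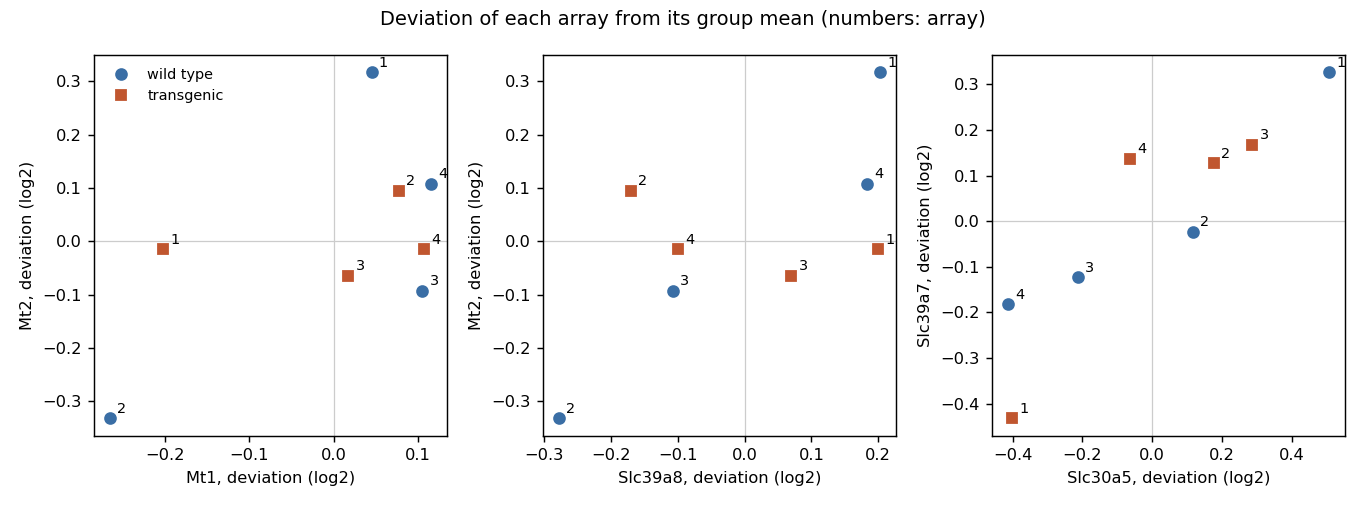
Deviation of each array from its group mean, in log2 units on both axes, for Mt1 and Mt2 (left), Slc39a8 and Mt2 (middle) and Slc30a5 and Slc39a7 (right), with blue circles for wild type, orange squares for transgenic and the array's number beside each. Wild type array 2 is lowest for Mt1, Mt2 and Slc39a8, and the right panel follows a line with r = 0.90 over the 8 arrays. Slc39a7 was chosen for the right panel after its values were seen.

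Over the 8 arrays the genes most like Mt2, among 7047 genes above the median level, were Stc2, Copz2, Klf15, Prom2 and Irak1, with Pearson r from 0.9909 to 0.9935. Stc2, encoding stanniocalcin 2, went from 7.66 ± 0.19 to 6.38 ± 0.03 and Prom2, encoding prominin 2, from 8.78 ± 0.26 to 7.14 ± 0.18 (SD, n = 4 each). These r values are set mainly by the difference between the groups. By the deviations from group means the order was Tomm40l, Ramp1, Nudt1, Kdelr3 and Cdkn2c, at r from 0.94 to 0.98. Their differences between groups went in opposite directions, with Ramp1 at 2.78 and Cdkn2c at -0.65.

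Of 5 measured genes reported to depend on MTF-1, 1 fell (against 4.98% of all genes), 1 rose (5.99%) and 3 did not pass. The transgenic mean was the lower one in 4 of the 5, with a median difference of -0.16. Csrp1, encoding a protein of actin filaments that is abundant in smooth muscle, went from 10.41 ± 0.29 to 9.76 ± 0.09 (limma adjusted p = 0.0117). Its probe set is marked as shared between transcripts. Selenow, encoding selenoprotein W, went from 9.90 ± 0.13 to 10.29 ± 0.10 (limma adjusted p = 0.0298), measured by a probe set that may hybridise to related sequences. Quantile normalization (adjusted p = 0.0924) and cyclic loess (adjusted p = 0.0730) each ended the Selenow call, as did fits without transgenic array 2, 3 or 4 or wild type array 3 (adjusted p = 0.0584 to 0.102). Gclc, which encodes a subunit of the enzyme that starts glutathione synthesis, differed by -0.11. Ndrg1, on a probe set marked as shared between transcripts, differed by -0.31 (limma adjusted p = 0.155), and Pgf, encoding placental growth factor and below the median of every array, by -0.16.

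Genes of copper and iron handling gave 2 rises (against 5.99% of all genes) and 0 falls (4.98%) among 13 measured. The other 11 did not pass. Slc40a1, encoding ferroportin, the iron exporter, went from 5.56 ± 0.41 to 6.61 ± 0.17 (limma adjusted p = 0.00365). Heph, encoding an oxidase that works with ferroportin, went from 3.53 ± 0.23 to 4.04 ± 0.10 (limma adjusted p = 0.0211), with all values below the array medians. Heph missed the threshold without transgenic array 2 (adjusted p = 0.0548) or 4 (adjusted p = 0.0706). Slc11a2, Tfrc and Fth1, of iron import and storage, differed by -0.03, 0.16 and -0.08.

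Glucocorticoids also induce metallothionein genes. Of 12 genes known to respond to them, 3 rose (against 5.99% of all genes), 2 fell (4.98%) and 7 did not pass. Tsc22d3, encoding the glucocorticoid-induced leucine zipper, went from 9.55 ± 0.34 to 8.13 ± 0.42 (SD, n = 4 each; limma adjusted p = 0.00134), and Lcn2, encoding lipocalin 2, fell by 0.57. The Tsc22d3 and Lcn2 probe sets are marked as shared between transcripts. Without such probe sets 3 of the 9 genes left in the list rose and 0 fell. Ddit4, an inhibitor of mTORC1, rose by 1.24, Nfkbia, the NF-kB inhibitor, by 0.70 and the phosphatase gene Dusp1 by 1.27. In Dusp1 a single wild type array, array 2, stood at 7.59 while the rest of its group stood at 5.90 to 5.94, and the call was lost when any array other than wild type array 2 or transgenic array 1 was left out (adjusted p = 0.0564 to 0.0903). The Lcn2 call was lost without transgenic array 2 or 4 or wild type array 2 or 3 (adjusted p = 0.0782 to 0.0986). Fkbp5 and Sgk1, 2 standard glucocorticoid targets, stood at -0.30 and -0.51 without passing (limma adjusted p = 0.171 and 0.0503). Klf9 at 0.27 did not pass either (limma adjusted p = 0.0918). The rest that did not pass were Sult1a1 at 0.16, Errfi1 at -0.01, Zbtb16 at -0.17 and Per1 at -0.19. The median difference of the 12 genes was -0.09.

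Interleukin 6 and the acute phase response induce metallothionein and Slc39a14 genes in liver. Of 13 genes of this response 2 rose (against 5.99% of all genes), 1 fell (4.98%) and 10 did not pass. Of the serum amyloid genes, Saa1 rose from 6.04 ± 1.11 to 12.63 ± 0.06 and Saa2 from 4.25 ± 0.42 to 9.49 ± 0.10 (SD, n = 4 each). Saa3, on a probe set marked as shared between transcripts, stood at 7.19 ± 1.76 and 7.8 ± 0.19. Its groups overlapped and it did not pass (limma adjusted p = 0.679). Lcn2 fell as given above. The Saa2 probe set may hybridise to related sequences, so the 2 rises may not be independent. Socs3, a feedback inhibitor induced by this pathway, differed by -0.41 and Stat3 by -0.17, and neither passed (limma adjusted p = 0.207 and 0.531). Nearer the threshold were Cebpb at -0.56 and Il6st at -0.41 (limma adjusted p = 0.0771 and 0.0592). The transgenic mean was the lower one in 8 of the 13 genes, and 6 had an unadjusted p under 0.05. Without wild type array 4, 6 of the 13 genes passed, 3 higher and 3 lower.

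Citrate handling is the process that zinc is known to affect in prostate epithelium. Of its 8 measured genes, 4 rose (against 5.99% of all genes), 0 fell (4.98%) and 4 did not pass. Idh1, encoding cytosolic isocitrate dehydrogenase, went from 8.67 ± 0.26 to 9.64 ± 0.23 (limma adjusted p = 0.00181) and Acly, encoding ATP citrate lyase, which splits citrate, rose by 0.49, a call that quantile normalization ended (adjusted p = 0.0515). Cs, encoding citrate synthase, and Got1 rose by 0.35 and 0.47. The Idh1 and Cs probe sets are marked as shared between transcripts. Cs passed at an adjusted p of 0.0489 and lost its call when any array other than wild type array 1 was left out (adjusted p = 0.0538 to 0.153). Got1 lost it without any one transgenic array or wild type array 2 or 4 (adjusted p = 0.0604 to 0.113). Without any one transgenic array, or wild type array 2 or 4, 2 of the 8 genes passed.

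**Figure D4:**
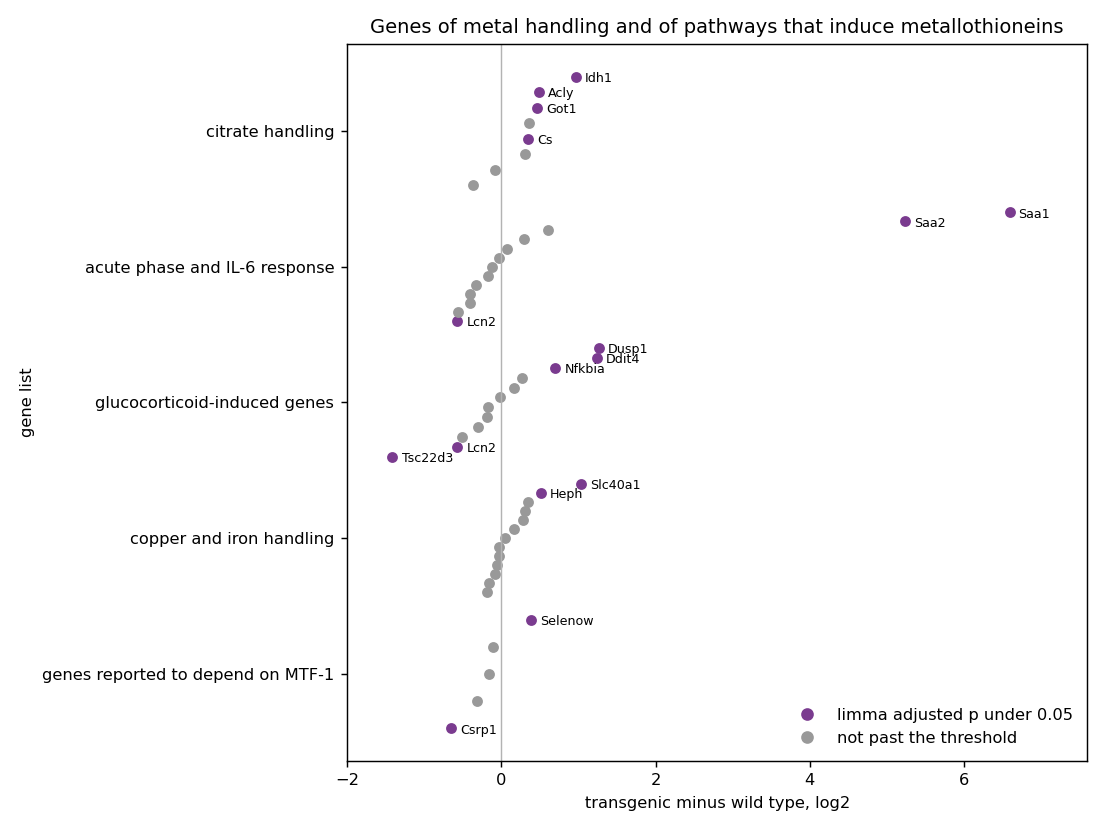
Difference between groups (horizontal axis, log2 of transgenic over wild type) of each measured gene of 5 lists (vertical axis), purple and named where the limma adjusted p was under 0.05 and grey otherwise. Saa1 at 6.59 and Saa2 at 5.23 lie far to the right, and the remaining genes lie between -1.41 (Tsc22d3) and 1.27 (Dusp1).

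The samples carried the markers of the labelled tissue, and no 2 arrays were copies (correlations of 0.967 to 0.996). The summed level of 8 luminal epithelial markers, as log2 of the summed linear values, lay between 13.47 and 13.61 in wild type and 14.15 and 14.23 in transgenic arrays, with 5 higher and 0 lower. That of 4 prostate secretion genes lay between 14.91 and 15.25 against 13.89 and 14.53, with 3 lower. Of 8 basal markers 5 fell (10.22 to 10.37 against 9.42 to 9.70), and Krt17 and Trp63 were below the median of every array. Of 10 smooth muscle and 9 fibroblast markers 2 each fell and 0 rose, with summed levels of 12.78 to 13.61 and 11.78 to 12.64 in wild type against 12.37 to 12.77 and 11.41 to 11.65 in transgenic arrays. Beside these marker counts, 5.99% of all genes were called higher and 4.98% lower. All 6 seminal vesicle markers lay below the median of every array, and RMA gives no value of 0. With a stromal score built from the smooth muscle and fibroblast markers as a covariate, the differences were -2.33 for Mt2, -0.92 for Mt1 and -1.72 for the brighter Slc39a8 probe set, against -2.01, -0.79 and -1.43 without it. With the same covariate 8 named genes no longer passed (adjusted p = 0.0601 to 0.552). The difference became smaller for Csrp1 (-0.65 to -0.35), Lcn2 (-0.57 to -0.30) and Got1 (0.47 to 0.26). It changed little for Slc39a13 (-0.57 to -0.55), Slc40a1 (1.04 to 1.05), Cs (0.35 to 0.36) and Acly (0.49 to 0.50) and was larger for Selenow (0.39 to 0.47), and the SE was larger for all 8 (0.15 to 0.27 against 0.10 to 0.18). The part of the epithelial and secretory changes in these differences was not tested, and in whole tissue fewer cells of a type and less RNA per cell cannot be told apart. The 3 prime minus 5 prime difference of the control probe sets, a sign of RNA quality, lay between 1.34 and 1.56 in wild type and 0.97 and 1.40 in transgenic arrays, and its part was not tested.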

How the data were processed

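Total RNA was extracted with Trizol, cleaned on an RNeasy column and biotin-labelled for Affymetrix arrays, 1 per sample, per the labels' protocols. The deposited log2 values were made by the authors with RMA, per the submitters' processing notes; no version is given. Of 22690 probe sets in the table, 64 were array controls and did not enter the tests. Symbols came from the platform annotation, updated by gene identifier from the RefSeq table of GRCm38.p6 (20380 probe sets had 1 symbol, 691 several and 1555 none, and 29 kept an unmatched symbol). A gene was represented by its probe set with 1 symbol and the highest mean.

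Transgenic was compared with wild type by limma 3.58.1 (lmFit, then eBayes; R 4.3.3) over the 22626 others, with a threshold of 0.05 on p-values adjusted over all of them by the Benjamini-Hochberg method. The fit was tested on simulated data. The number of arrays limits the precision.

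Members and gene lists were chosen with earlier results of these data known. The text names every member, the called genes of each list (or that with the smallest p where none was called) and the 5 genes most like Mt2 by each measure; other list genes given with values were chosen after these were seen. The settings tried besides were normalization by quantiles or cyclic loess, array weights, a robust prior with a mean-variance trend, a stromal score as covariate, a block for replicate number, dropping the 40% dimmest probe sets, a threshold of 0.01, other uses of a gene's probe sets and leaving out each array.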

Additional observations from a re-analysis of the deposited data

Results flagged for a closer look

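Among the probe sets of the zinc genes and the named genes of the lists, the 4 arrays of each group were checked for 1 array far from the other 3 (Dixon's ratio past its 95% critical value), in 64 groups, of which 3 stood out. Chance alone gives about 1 in 20. The dimmer Mtf1 probe set was at 4.55 in wild type array 3, against 5.12 to 5.19 in the other wild type arrays, all below the array medians. Heph was at 3.19 in wild type array 1, against 3.61 to 3.68, also below the medians. Dusp1 was at 7.59 in wild type array 2, against 5.90 to 5.94, within the range of the transgenic arrays.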

How the results depend on the processing

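At the gene level Mt2 and Slc39a8 were called lower under every alternative run. So was Mt1, except that it lost its call, at -0.02, when probe sets marked as shared were left out. With the mean of each gene's probe sets the values were -0.41 for Mt1 and -1.13 for Slc39a8. These genes were chosen with this comparison known and every setting used these same samples. The repeated calls therefore describe the settings and lend the falls no support. Over the settings that keep single probe sets Mt2 ranged from -2.33 to -1.90 and the brighter Slc39a8 probe set from -1.72 to -1.36. Over all probe sets, 2227 were called, 3587 with array weights, 1008 with the stromal score and 1096 at a threshold of 0.01. The 14 probe sets of the zinc genes had 5 calls, and 3 with the replicate number as a block, with the stromal score or at 0.01. The calls lost with the block were those of the dimmer Slc39a8 and the dimmer Slc39a14 probe set, and, among other genes named, of Slc39a13 (adjusted p = 0.0546), Heph (adjusted p = 0.0505) and Cs (adjusted p = 0.0810). A robust prior with a trend ended the calls of Cs (adjusted p = 0.0627) and the dimmer Slc39a14 probe set. The other zinc transporters had 2, 1 with the replicate block or the stromal score and 0 at 0.01.

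Genes reported to depend on MTF-1 had 2 calls, 1 under quantile or cyclic loess normalization, and 0 with the stromal score, without shared probe sets or at 0.01. Copper and iron genes had 2, and 1 with the replicate block, the stromal score, without the dimmest probe sets or at 0.01. Glucocorticoid-induced genes had 5, and 3 without shared probe sets or at 0.01. Acute phase genes had 3, 6 with array weights and 1 without shared probe sets. Citrate genes had 4, 1 with the stromal score, and 2 under quantile normalization, without shared probe sets or at 0.01. The cause of these changes was not tested.

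Leaving out each array gave 1387 to 2525 calls over all probe sets, 3 to 5 for the zinc probe sets, 3 for their genes, 0 to 3 for the other zinc transporters, 0 for Mt3 and Mt4, 1 to 2 for MTF-1 genes, 1 to 2 for copper and iron, 3 to 6 for glucocorticoid-induced, 2 to 6 for acute phase and 2 to 4 for citrate genes. Replicate numbers 1 to 4 occur in both groups, and the deviations of same-numbered arrays correlated at r = -0.31, 0.235, -0.20 and 0.331. These were not set against arrays of different number, so whether the number marks a shared batch was not tested. Values below the array medians limit Slc30a1, Slc39a4 and the dimmer probe sets of Mt1, Mtf1 and, in transgenic arrays, Slc39a8.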
